A study of Macaca fascicularis with 132 samples.

Results

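Control culture of mononuclear blood cells (PBMCs) from cynomolgus macaques, Macaca fascicularis, was compared between 2 h and 0 h, without any added cytokine. Libraries were chosen by their labels (control, dose 0 ng/ml, 2 h or 0 h), which gave 24 libraries, 12 for each time, or 2 of the 11 groups of 12 libraries that make up the series. They come from 4 animals, 38142 and 38155 (female) and 38147 and 38157 (male), with 3 numbered libraries for each animal and time. From the same animals, later control cultures (6, 12, 24 and 48 h) and cultures given heterodimeric IL-15, the cytokine joined to the alpha chain of its receptor, at a dose of 40 ng/ml (2, 6, 12, 24 and 48 h) were used alongside. No genotype, age, culture medium or handling before 0 h is given in the labels used here, and the cells are a mixture, so a lower level can come from fewer cells of a type or from less of an RNA per cell, which cannot be told apart in bulk RNA.

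Mononuclear cells of the blood are T cells, B cells, natural killer cells, monocytes and dendritic cells, set apart from red cells, granulocytes and most platelets. Taking them from circulating blood into culture medium is known to switch on early-response genes within hours, and many of these RNAs are short-lived and fall again soon after. Signals carried by the blood and contact with the vessel wall are lost once cells leave the blood, so before the 0 h samples of isolated cells. Control cultures sampled at several times make it possible to see which RNA changes belong to culture itself, which is the background against which an added cytokine is read.

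Each library's counts were summed within animal and time, which gave 4 sums at 0 h and 4 at 2 h. The totals of single libraries ran from 16710160 to 35551758 counts at 0 h (median 22929162) and from 16423972 to 33509010 at 2 h (median 25959404), with 15457 to 19766 and 16035 to 18723 genes that had a count. Library 3 of animal 38157 at 2 h stood apart, as did 2 libraries of other groups used below, control at 48 h (animal 38142, library 1) and IL-15 at 24 h (animal 38147, library 2). Their root mean square log2 distances to the closest library of the same animal and group were 0.47, 0.90 and 0.42, against a median of 0.20 for such distances in the series. The 2 h library was still nearer to the other 2 h libraries of that animal (0.40 to 0.55, cultures with IL-15 included) than to its 0 h libraries (0.83 to 0.87). The gene IDs of the tables are not paired with gene names in the sources used here. Known genes, pathways and the markers of mononuclear cells could therefore not be looked up, and the labelled cell type was not checked against its markers. Genes are described below as groups, by direction, size of change and level, and 4 IDs are followed singly.

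Within 2 h of control culture a large share of the genes tested had a changed level. Of 18197 genes tested, 4451 were higher at 2 h (24.5%) and 5172 were lower (28.4%) at an adjusted p under 0.05 (edgeR's quasi-likelihood test with a term for the animal, n = 4 sums a time, Benjamini-Hochberg adjustment over all genes tested). The test called 9623 genes in all (52.9%). This share depends on the genes tested and the animals, as it was 29.1% with no filter on low counts, 69.5% among genes with at least 5 CPM in 4 sums, 38.6% without a term for the animal and 45.4% to 48.8% with 1 animal left out. In the fit as reported 10448 had an unadjusted p under 0.05. Without the 2 h library that stood apart, 4420 genes were higher and 5243 lower, and without all 3 such libraries 4437 and 5281. The median change was a log2 of 0.84 among the genes that rose (quartiles 0.52 and 1.27) and -0.80 among those that fell (quartiles -1.19 and -0.53). Since the test picked these genes, both medians only describe them. Over all genes tested the median was -0.13.

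Over all genes tested, changes of at least a doubling were about as frequent as those of at least a halving, and most of the steepest changes were increases. A change of at least 1 on the log2 scale, which is a doubling or a halving, was seen in 1738 genes that rose (9.55% of those tested) and 1840 that fell (10.1%). With upper-quartile scaling in place of TMM these counts became 1417 and 2328, so the share of rising genes among them went from 48.6% to 37.8%. At a log2 change of at least 2 there were 410 higher and 298 lower genes, at 3 or more 163 and 70, and at 4 or more 70 and 23. Many of the steep changes were of rare RNAs. Among the genes that rose, 72 had at most 3 counts over all 4 sums at 0 h, 24 of them with 0 counts, and their median level at 2 h was 0.0877 CPM (counts per 1000000 of a sum's total after TMM scaling), with 0.804 CPM as the highest. Among the genes that fell, 64 had at most 3 counts over the 4 sums at 2 h, and 11 of those had 0. The balance of doublings and halvings differed with mean level over both times. Below 1 CPM 414 genes called had at least doubled and 845 at least halved, and from 1 to 5 CPM 205 and 370. Doublings were the more frequent from 5 to 20 CPM (340 and 290), 20 to 100 CPM (529 and 254) and 100 to 500 CPM (238 and 70). At 500 CPM or more there were 12 and 11.

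**Figure D1:**
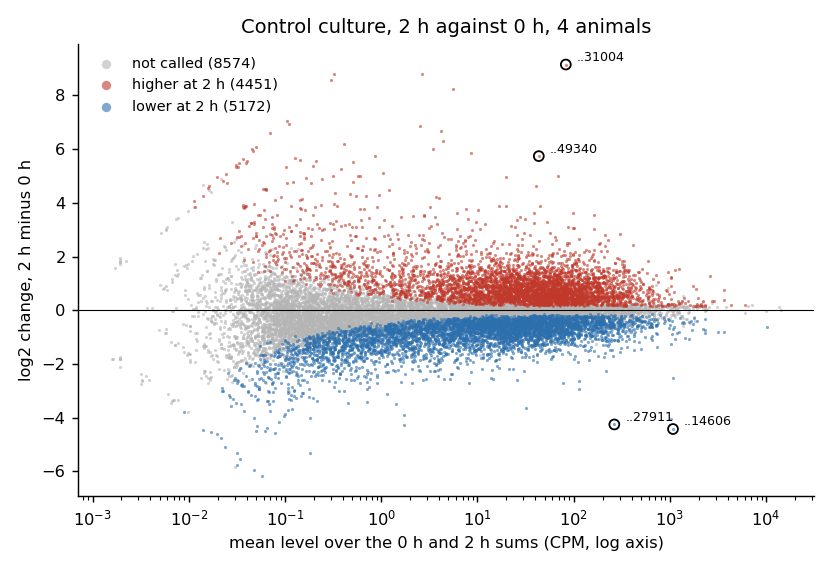
Each point is 1 of 18197 genes, with its mean level over the 8 sums on the horizontal axis (CPM, log scale) and its log2 change from 0 h to 2 h on the vertical axis. Genes called higher (4451) are red, genes called lower (5172) blue and genes not called (8574) grey, and circles mark the 4 IDs followed singly by the last digits of their names. The 2 circled IDs that rose lie above nearly all other genes of their level, and the 2 that fell lie below them.

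Direction and level went together. Among genes with a mean below 1 CPM over both times, 8.28% rose and 18.2% fell, and from 1 to 5 CPM the shares were 16.4% and 35.4%. From 5 to 20 CPM they were nearer each other (29.3% and 37.4%). Among the more abundant RNAs the order was the other way round, with 39.3% higher and 32.4% lower from 20 to 100 CPM and 39.9% against 27.1% from 100 to 500 CPM. At 500 CPM or more, 29.5% of the 359 genes rose and 23.7% fell. These shares rest on TMM scaling. Upper-quartile scaling called 3861 genes higher and 6167 lower in all, and whether the order by level holds under it was not tested. In the plot of called genes by level, rising genes make up more of the calls from 20 CPM upward. Fewer changes of a given size can be called in rare RNAs, so the lower total at the left does not show that rare RNAs changed less. Their median size of change, called or not, was 0.71 below 1 CPM and 0.25 at 500 CPM or more, on the log2 scale and with counting error included.

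**Figure D2:**
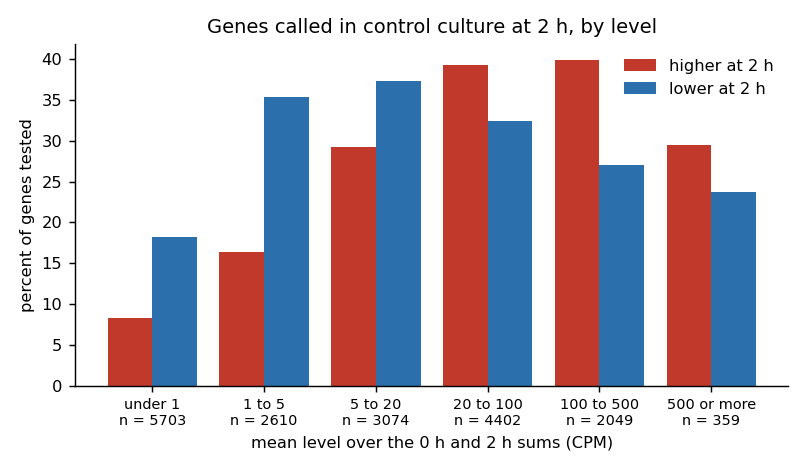
Bars give the percent of genes tested that were called higher (red) or lower (blue) at 2 h, in 6 classes of mean level over the 0 h and 2 h sums (CPM), with the number of genes tested under each class. With TMM scaling, falling genes outnumber rising ones below 20 CPM and rising genes outnumber falling ones above it.

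As shares of all counts, the genes that rose took 26.9%, 26.2%, 26.9% and 27.2% at 0 h in animals 38142, 38147, 38155 and 38157, and 41.6%, 40.0%, 41.5% and 41.3% at 2 h. The genes that fell took 31.95% ± 0.16 (SD, n = 4) at 0 h and 19.5% ± 0.16 at 2 h. These genes were chosen for their change in the same 4 animals, so the direction of these shifts follows from the choice. The 1738 genes that at least doubled went from 4.50% ± 0.18 of the counts to 11.3% ± 0.20, and the 1840 that at least halved from 5.30% ± 0.40 to 1.95% ± 0.12. The strongest fall was uneven at its start. The 298 genes lower by a log2 of at least 2 took 1.25% of the counts at 0 h in animal 38147 and 0.426% to 0.590% in the other 3, and 0.0396% to 0.106% at 2 h. Because counts are shares of a library, a gain by some genes lowers the share of all others, and no measure of RNA per cell was used here.

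The change was of similar size in the 4 animals. Over 9884 genes whose mean reached 5 CPM, the root mean square log2 change was 0.85 in 38142, 0.79 in 38147, 0.82 in 38155 and 0.82 in 38157. Among these more abundant genes, called or not, doublings numbered 1382, 1010, 1155 and 1201 in the same order, and halvings 683, 728, 726 and 724. Animal 38142 had the most doublings and the fewest halvings. Of the variance in log2 level over these genes and the 8 sums, time accounted for 53.3%, the animal for 42.8% and the rest, in which animals changed differently, for 3.94%. The first principal component (53.4%) had the 4 sums at 0 h on one side and the 4 at 2 h on the other, and the second (18.4%) set animal 38157 apart from the other 3 at both times. Between animals the median SD of a gene was 0.22 at 0 h and 0.23 at 2 h, and the median SD of its change 0.20, all on the log2 scale.

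Of the genes called higher, 4145 (93.1%) were higher in 4 of 4 animals, and of those called lower, 4841 (93.6%) were lower in 4 of 4, against 10947 genes (60.2%) of all those tested that moved one way in 4 of 4. The call partly demands this, so the shares describe the genes called. In 294 of the higher genes and 314 of the lower ones 1 animal went the other way. Groups that do not overlap were common. All 4 sums at 2 h lay above all 4 at 0 h in 3037 of the genes tested (16.7%), and below them in 2914 (16%). Of the genes called, 2990 of the higher (67.2%) and 2836 of the lower (54.8%) had no overlap. Without summing, and scaled by library totals alone, all 12 libraries at 2 h lay above all 12 at 0 h in 1491 genes (8.19%) and below them in 1214 (6.67%).

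Libraries of 1 animal and time differed less from each other than those of the 2 times. The root mean square log2 distance between sister libraries had a median of 0.24 (0.16 to 0.53, 24 pairs), and between a 0 h and a 2 h library of 1 animal a median of 0.81 (0.76 to 0.89, 36 pairs), with no overlap between the ranges. Column names of the tables hold further tokens whose meaning no label gives, and these were treated as possible batches. In 5 pairings with the same animal and the same tokens at both times, the root mean square change was 0.76 to 0.87, and the median change was 0.49 to 0.74 for the genes called higher and -0.79 to -0.61 for those called lower. These libraries also served to call the genes, so the sign of the medians follows from the choice. The 0.87, 0.49 and -0.79 come from a pairing of animal 38157 whose only 2 h library is the one that stood apart. Another pairing is from that animal too. Females and males were not told apart by the change. The interaction of sex and time called 0 of 15732 genes with edgeR's quasi-likelihood test (774 at an unadjusted p under 0.05, 4.92%) and 0 with limma (681 at an unadjusted p under 0.05, 4.33%). With 2 animals a sex, a difference between sexes is also a difference between animals, and a count of 0 does not show that the sexes responded alike.

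Among the genes that rose, 2745 were higher in 4 of 4 animals and reached a mean of 20 CPM at 2 h, and the 2 with the highest fold change are ENSMFAG00000031004 and ENSMFAG00000049340. What they encode is not known from the sources used here. ENSMFAG00000031004 stood at 0.595, 0.139, 0.0508 and 0.380 CPM at 0 h in animals 38142, 38147, 38155 and 38157, and at 285, 97.8, 61.2 and 218 CPM at 2 h. It went from almost no counts (as few as 4 in an animal's sum) to a level that took rank 1531 among all genes, and its animals were far apart at 2 h, with 38142 highest and 38155 lowest. The log2 change was 9.15 ± 0.49 (SE from the fit over all 11 groups, n = 4 animals; adjusted p = 1.221e-16, edgeR's quasi-likelihood test).

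ENSMFAG00000049340 stood at 1.17, 1.19, 1.79 and 2.10 CPM at 0 h and at 71, 95.1, 87.1 and 87.9 CPM at 2 h, in the same order of animals. Its 4 animals were close to each other at 2 h (85.3 ± 10.2 CPM, SD, n = 4), and the 2 times did not overlap. The log2 change was 5.74 ± 0.24 (SE from the fit over all 11 groups, n = 4 animals; adjusted p = 2.656e-20, edgeR's quasi-likelihood test).

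Among the genes that fell, 2225 were lower in 4 of 4 animals from a mean of at least 20 CPM at 0 h, and the 2 with the lowest fold change are ENSMFAG00000014606 and ENSMFAG00000027911. ENSMFAG00000014606 was among the most abundant RNAs at 0 h, at rank 36 by level, with 1298, 3723, 1795 and 1431 CPM in animals 38142, 38147, 38155 and 38157. At 2 h it was at 53.9, 155, 99.7 and 58 CPM. The animal highest at 0 h was also highest at 2 h, and the log2 change by animal was -4.59, -4.58, -4.17 and -4.62. In the fit over all 11 groups it was -4.42 ± 0.51 (SE of that fit, n = 4 animals; adjusted p = 6.386e-09, edgeR's quasi-likelihood test).

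ENSMFAG00000027911 stood at 234, 1172, 311 and 295 CPM at 0 h and at 22.06, 32.03, 20.3 and 30.03 CPM at 2 h. Animal 38147 was far above the others at 0 h and only slightly above them at 2 h, so its log2 change was -5.19, against -3.41, -3.94 and -3.29 in 38142, 38155 and 38157. The change over the animals was -4.25 ± 0.39 (SE from the fit over all 11 groups, n = 4 animals; adjusted p = 5.562e-11, edgeR's quasi-likelihood test). Without animal 38147 it was -3.61. At 0 h that animal had the largest share of counts in the 298 genes that fell most. Those genes include this ID and ENSMFAG00000014606, which was also highest in that animal, so this is not a separate observation.

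**Figure D3:**
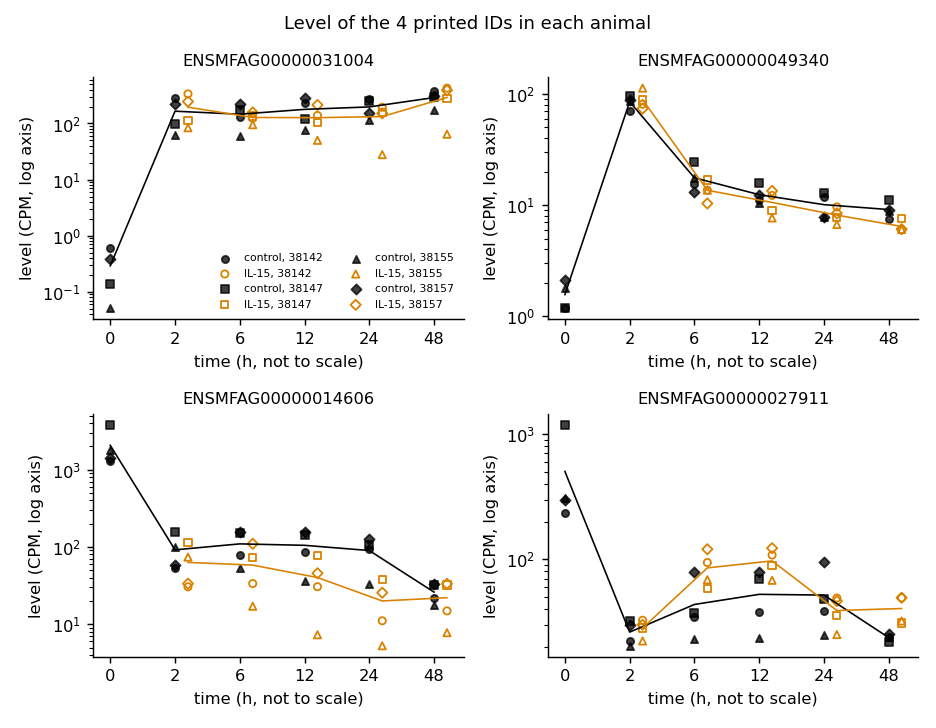
Level of the 4 IDs (CPM, log axis) at each time in control culture (filled black) and in culture with IL-15 (open orange, shifted to the right), with 1 symbol per animal and lines through the group means. ENSMFAG00000031004 stays high, with a mean of 165 CPM at 2 h and 289 CPM at 48 h, ENSMFAG00000049340 falls from 85.3 CPM at 2 h to 17.6 CPM at 6 h, and the 2 IDs of the lower row stay far below their 0 h level.

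The 4 IDs had different courses after 2 h. In control culture ENSMFAG00000031004 had means of 146, 178, 197 and 289 CPM for 6, 12, 24 and 48 h, after 165 CPM at 2 h, and all 4 animals were higher at 48 h than at 2 h. ENSMFAG00000049340 fell to a mean of 17.6 CPM at 6 h, with all 4 animals between 13.2 and 24.3, and then stood at 12.4, 10.1 and 9.12 CPM at 12, 24 and 48 h, which is above its 0 h level in every animal. ENSMFAG00000014606 was at a mean of 89.9 to 109.6 CPM from 6 h to 24 h and at 26.04 CPM at 48 h. ENSMFAG00000027911 was at 43.4, 52.3, 51.6 and 23.6 CPM from 6 h to 48 h, and its lowest animal at 0 h (234 CPM) was above its highest later value (95.2 CPM).

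Of these courses 1 later step passed the test in a comparison that shares no library with 0 h or 2 h. From 24 h to 48 h of control culture ENSMFAG00000014606 fell by 1.73 ± 0.46 on the log2 scale (SE, adjusted p = 0.0253, edgeR), and without the 3 libraries that stood apart, one of them in its 48 h sum, it was -1.71 (adjusted p = 0.0299, edgeR). No other step of the 4 IDs from 24 h to 48 h or from 6 h to 12 h passed the test. Each of the 4 differed between culture with IL-15 and control culture at 1 time or more. ENSMFAG00000014606 was lower with IL-15 than in control culture at 12 h (log2 difference -1.50 ± 0.45, adjusted p = 0.0114) and at 24 h (-2.36 ± 0.47, adjusted p = 0.000167), by edgeR's quasi-likelihood test. ENSMFAG00000027911 was higher with IL-15 at 12 h, with 107.9, 89.5, 67.7 and 122.4 CPM against 37.6, 69.5, 23.6 and 78.7 CPM (log2 difference 0.97 ± 0.35, adjusted p = 0.0318). Both rising IDs were lower with IL-15 once, ENSMFAG00000031004 at 24 h (-0.79 ± 0.32, adjusted p = 0.0476) and ENSMFAG00000049340 at 48 h (-0.50 ± 0.19, adjusted p = 0.0369). With IL-15 at 24 h ENSMFAG00000031004 had 194.3, 156.8, 27.8 and 151.8 CPM in animals 38142, 38147, 38155 and 38157. In control culture it had 270.8, 248.3, 116.2 and 153 CPM, so 38157 hardly differed. The difference between the 2 falling IDs in their response to IL-15 was not tested.

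Followed as groups and without regard to level, the genes that fell came back further than those that rose. The 1738 genes that had at least doubled at 2 h had a median log2 change from 0 h of 1.43 at 2 h and of 0.81, 0.73, 0.68 and 0.71 at 6, 12, 24 and 48 h of control culture. The 1840 that had at least halved had a median of -1.37 at 2 h and of -0.54, -0.34, -0.17 and -0.15 at the later times. For all genes tested the medians were -0.13 at 2 h and -0.03, 0.01, 0.06 and 0.07 later. All these values share the sums at 0 h, and genes chosen for a large value at 2 h are expected to lie nearer to 0 at any other time, so they are given side by side with no test. The 2 groups also differ in level. A mean below 1 CPM over 0 h and 2 h was found in 845 of the halved genes and 414 of the doubled ones. What level adds to the difference between the groups was not tested. In the 298 genes lowest at 2 h, 240 of them below 1 CPM, the medians were -2.46, -0.96, -0.52, -0.15 and -0.19. In the 410 highest, 214 of them below 1 CPM, they were 2.75, 1.72, 1.74, 1.80 and 1.80. The median of the latter stayed at about one level from 6 h on, while single genes moved both ways. From 6 h to 12 h 13 of the 410 rose and 19 fell (3.17% and 4.63%), where 4.2% and 3.4% of all genes tested did.

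The animals agreed on this course. Taken per animal from log2 levels, the median of the 1738 doubled genes was between 1.34 and 1.51 at 2 h and between 0.63 and 0.72 at 48 h. That of the 1840 halved genes was between -1.37 and -1.24 at 2 h and between -0.21 and 0.03 at 48 h, where 3 animals were below 0 and 38147 was above. In culture with 40 ng/ml of IL-15 the same genes had at 2 h a median of 1.38 (doubled) and -1.33 (halved) against 0 h, close in size to the 1.43 and -1.37 without the cytokine. These cultures share the 0 h sums with the controls. At 48 h the per-animal median of the halved genes with IL-15 was -0.32 ± 0.09 (SD, n = 4), against -0.12 ± 0.11 in control culture. The animals' ranges did not overlap. Set directly against control culture at 48 h, 236 of the 1840 halved genes were higher with IL-15 (12.8%) and 461 lower (25.1%), where 20.2% and 20% of all genes tested were. Many halved genes are rare, with 845 below 1 CPM and 370 from 1 to 5 CPM. Below 5 CPM, genes not called at 2 h also leaned lower with IL-15 at 48 h (9.32% higher, 16.9% lower). All fallen genes of that level stood at 9.89% and 28.2%. The halved genes were not compared with others of equal level.

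**Figure D4:**
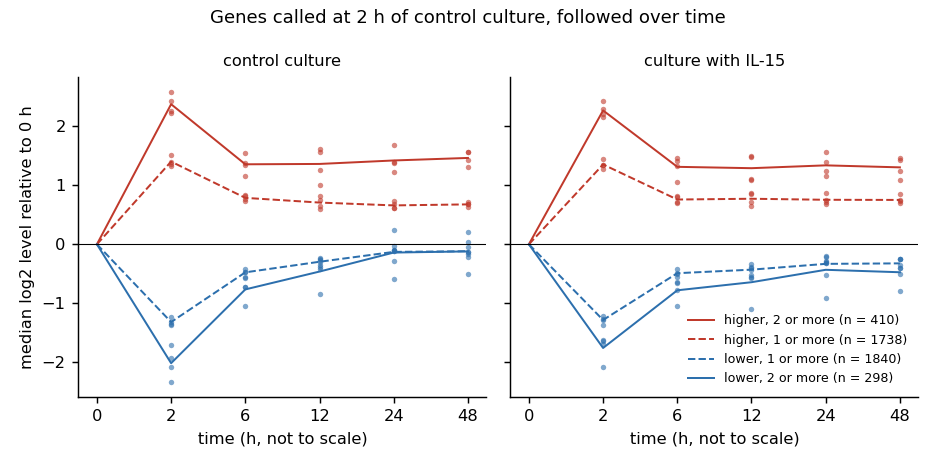
Median log2 level relative to 0 h of the genes called at 2 h of control culture, over time without (left) and with IL-15 (right). Lines are means over 4 animals, points are single animals, and solid and dashed lines are genes that changed by at least 2 and at least 1 on the log2 scale at 2 h. In control culture the blue lines approach 0 by 24 h, in both panels the red lines level off above it from 6 h on, and genes were chosen on the control 2 h values shown.

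A later step of culture was read in libraries other than those of 0 h and 2 h. From 6 h to 12 h of control culture, 765 of the genes tested rose (4.2%) and 618 fell (3.4%). Of the 5172 genes that were lower at 2 h, 411 rose from 6 h to 12 h (7.95%) and 2.46% fell, with a median of 0.06 against 0.00 over all genes. Of the 4451 that were higher at 2 h, 82 rose (1.84%) and 216 fell (4.85%), with a median of -0.06. In both groups the later calls thus lay more often against the 2 h direction than with it, and the median shifts were small. Each animal was also left out in turn, with both comparisons refitted. Without 38142, 38147, 38155 and 38157 the share of fallen genes that rose was 4.2%, 4.39%, 4.77% and 4.43%, against 1.94%, 2.39%, 2.44% and 2.18% of all genes, and the share that fell was 0.67%, 1.34%, 1.41% and 1.43%. For risen genes 0.683%, 1.28%, 1.25% and 0.959% rose and 1.9%, 2.22%, 2.42% and 3.29% fell. The order of the shares was the same in all 4 of these fits.

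Level bears on these shares, since rare and abundant genes were called at different rates. Among genes with a mean below 5 CPM over all groups, 8.34% of the fallen genes rose from 6 h to 12 h and 1.02% fell, against 2.83% and 1.77% of genes of that level not called at 2 h. From 5 to 20 CPM the fallen genes had 11.2% and 2.05%, against 4.50% and 4.79%, and from 20 to 100 CPM 7.07% and 3.05%, against 4.16% and 4.84%. At 100 CPM or more the order turned, with 3.14% of the fallen genes rising and 5.97% falling, against 2.17% and 7.94%. The risen genes were more often falling than rising in 3 of the 4 classes of level. Genes not called at 2 h were so in 3 as well, though not in the same 3. Below 5 CPM 3.88% of the risen genes fell and 2.35% rose, against 1.77% and 2.83% of genes not called. From 5 to 20 CPM the values were 2.75% and 3.21%, against 4.79% and 4.50%. From 20 to 100 CPM they were 3.95% and 1.44%, against 4.84% and 4.16%. At 100 CPM or more 9.97% fell and 0.82% rose, against 7.94% and 2.17%.

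From 24 h to 48 h of control culture little moved. In all, 386 of the genes tested rose (2.12%) and 290 fell (1.59%). Of the genes higher at 2 h, 1.82% rose and 66 genes fell, and of those lower at 2 h, 1.95% rose and 1.68% fell, near the shares of all genes tested. Without the 3 libraries that stood apart, the 4 shares were 1.74%, 1.44%, 2.31% and 1.57%, and those of all genes 2.3% (higher) and 1.55% (lower). With 1 animal fewer the calls dropped among all genes as well. Without animal 38142 the 4 shares were 0.405%, 0.228%, 0.67% and 0.185%, against 0.772% and 0.257% of all genes, and without 38147 they were 0.482%, 0.554%, 0.618% and 0.533%, against 0.725% and 0.516%. Without 38155 they were 1.06%, 1.6%, 1.71% and 1.19%, against 1.58% and 1.32%, and without 38157 they were 1.53%, 1.27%, 1.57% and 1.88%, against 1.64% and 1.65%.

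The same genes were read in cultures with IL-15 against control cultures of the same time, from 6 h on, which again share no library with 0 h or 2 h. They do share control sums with the steps from 6 h to 12 h and from 24 h to 48 h. At 6 h, 932 of the genes tested were higher with IL-15 (5.12%) and 644 lower (3.54%). The genes risen at 2 h of culture held 298 that were higher with IL-15 and 230 that were lower (6.70% and 5.17%). The fallen ones held 304 and 208 (5.88% and 4.02%). Without regard to level, both groups were a little above the shares of all genes in both directions. Without animal 38142 the shares were 3.14% and 2.98% for risen genes and 3.46% and 2.29% for fallen ones, against 2.62% and 1.84% of all genes in that fit. Without 38155 they were 2.56% and 2.49%, and 3.16% and 1.71%, against 2.47% and 1.62%. Without 38147 4.46% of the risen genes were higher, against 3.64% of all genes, and without 38157 3.72% of the fallen ones, against 3.42%. Below 5 CPM, 2.2% of risen, 3.5% of fallen and 1.5% of genes not called at 2 h were higher with IL-15. From 5 to 20 CPM these were 5.4%, 5.3% and 6.5%, and from 20 to 100 CPM 9.2%, 8.0% and 8.9%. At 100 CPM or more they were 7.0%, 8.6% and 7.7%. In the same order of level, 5.2%, 3.5% and 1.4%, then 5.6%, 4.3% and 4.7%, were lower. The last 2 classes had 4.4%, 4.0% and 4.2%, then 6.4%, 5.3% and 3.4%.

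At 12 h IL-15 raised 3177 (17.5%) and lowered 2550 (14%) of all genes tested, at 24 h 3644 (20%) and 3453 (19%), and at 48 h 3681 (20.2%) and 3635 (20%). Genes that had risen at 2 h of culture were more often higher than lower with IL-15, 1148 against 589 at 12 h (25.8% and 13.2%), 1315 against 697 at 24 h (29.5% and 15.7%) and 1230 against 782 at 48 h (27.6% and 17.6%). Genes that had fallen at 2 h were more often lower than higher, 1011 against 832 at 12 h (19.5% and 16.1%), 1321 against 932 at 24 h (25.5% and 18.02%) and 1310 against 1021 at 48 h (25.3% and 19.7%). Leaving out each animal kept the order of all 6 of these pairs. Single animals moved some of the shares by more than 1.5 times, as they did those of all genes. Without 38155 at 12 h, IL-15 cultures had 16.2% of the risen genes higher and 7.38% lower, and 10.2% and 12.3% of the fallen ones, against 11% and 8.17% of all genes. Without 38142, 10.3% of the fallen genes were higher at 12 h, against 11.8% of all genes, and 11.4% of the risen genes were lower at 48 h, against 13.5%. The 410 genes that rose most did not keep the order of all risen genes. In the 24 h cultures IL-15 raised 61 of the 410 (14.9%) but lowered 84 (20.5%). After 48 h it was 63 against 82, and after 12 h 60 against 55. The 1738 doubled genes as a whole kept the order, with 459 against 287 after 24 h. Of the 410, 214 had a mean below 1 CPM over 0 h and 2 h, and the part of level in this was not tested.

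**Figure D5:**
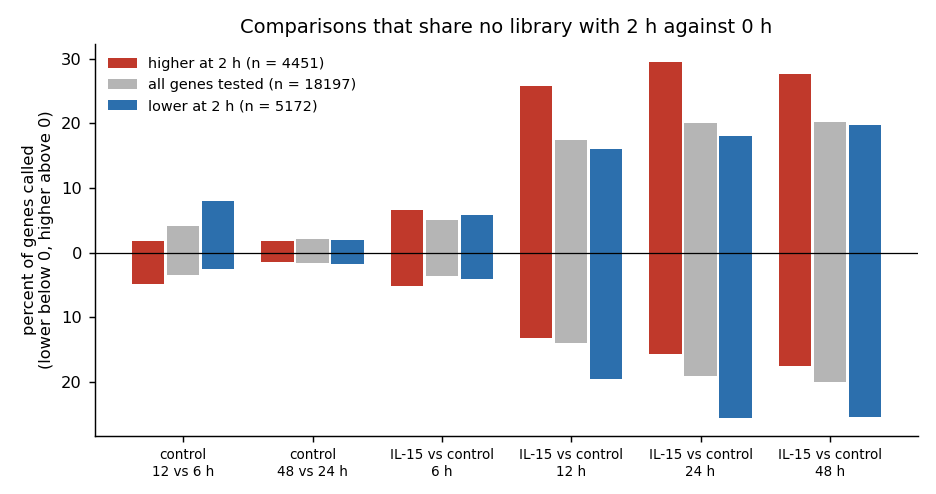
Percent of genes called higher (above 0) and lower (below 0) in 6 comparisons that use neither the 0 h nor the 2 h libraries, for genes higher at 2 h of control culture (red, 4451), genes lower at 2 h (blue, 5172) and all genes tested (grey, 18197). From 6 h to 12 h the bars lean against the 2 h direction (4.85% of the risen genes fell and 7.95% of the fallen genes rose), and with IL-15 from 12 h on they lean with it.

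The shares with IL-15 differed with level as well. At 24 h, among genes from 20 to 100 CPM, 37.3% of the risen genes were higher with IL-15 and 12.9% lower, against 33.6% and 17.9% of genes not called at 2 h. At 100 CPM or more the shares were 34.8% and 15.01%, against 32.01% and 18.9%. From 5 to 20 CPM they were 26.6% and 18.3%, against 28.2% and 23.1%. Below 5 CPM the order was the other way round, as IL-15 cultures had 10.1% of the risen genes higher and 19.8% lower, against 7.27% and 14.9% of those not called. Fallen genes below 5 CPM were lower with IL-15 in 26.6% and higher in 7.64%, and from 5 to 20 CPM in 30.2% and 17.4%, against 23.1% and 28.2% of genes not called. From 20 to 100 CPM they were lower in 22.96% and higher in 25.8%, and at 100 CPM or more in 20.4% and 30.8%. The share of these leans that level accounts for was not tested.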

How the data were processed

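The authors deposited 2 tables of raw counts per gene for the same 132 libraries, one with cynomolgus IDs (38550 rows, 31327 with a count) and one with rhesus IDs (35432 rows, 28595 with a count). The kits were Qiagen RNeasy Mini for RNA and KAPA mRNA HyperPrep for libraries, per the labels' protocols. For the aligner, counter, genome build and annotation, nothing is stated (not given in the sources used here). Results come from the table with cynomolgus IDs, with the other as an alternative. No ID could be paired with a symbol (0 matches in either table), so 15 gene lists and 9 marker lists were not run.

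Counts of the 3 libraries of an animal and group were summed (44 sums, 11 groups), since the labels do not say whether these are separate cultures. The p-values therefore rest on sums and not on single libraries. They measure the spread left after the term for the animal, shared over all 11 groups and not 0 h and 2 h alone. No sister libraries agreed within sampling noise. Tests used quasi-likelihood fits of edgeR 4.0.16 in R 4.3.3, with TMM, filterByExpr on groups, robust estimation and a term for the animal, with 30 residual degrees of freedom. A gene was called at a Benjamini-Hochberg adjusted p under 0.05 over the 18197 genes kept. SEs of log2 changes came from the F statistic of this shared fit. They are not the scatter of a change over the animals. CPM of sums used TMM-scaled totals, values of single libraries plain totals, and log2 levels a prior count of 2. Counts of amplified reads carry more than counting error.

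Labels give the same animals at both times. Deviations of an animal's sums at 0 h and 2 h from the group means correlated across genes with a median r of 0.831 (0.782 to 0.874), in 4 of 4 pairs. For printing, the 2 highest and the 2 lowest log2 changes were taken from genes with an adjusted p under 0.05, 4 of 4 animals in 1 direction and at least 20 CPM in the higher group. The comparison, lists and rules were chosen with earlier results of these data known. Sex was tested on the 8 sums alone, with limma 3.58.1 as an alternative. Other alternatives were scaling, filters, DESeq2 1.42.0, limma-voom, the fit without the animal, libraries entered singly, each animal or library number left out and the rhesus table. Chosen after seeing the data were the fits without the 2 h library or all 3 libraries that stand apart, with a term for column-name tokens, and on pairs with the same tokens.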

Additional observations from a re-analysis of the deposited data

Results flagged for a closer look

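In 13 sets of 4 animals (the levels of the 4 IDs at each time, their changes and the size of the change over all genes), Dixon's test at the 95% level set 2 single animals apart, and chance gives about 1 in 20. ENSMFAG00000014606 had a log2 change of -4.17 in animal 38155, above the -4.62 to -4.58 of the other 3 animals. ENSMFAG00000027911 had 1172 CPM at 0 h in animal 38147, above the 234 to 311 CPM of the other 3.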

How the results depend on the processing

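Over 22 alternatives the genes higher at 2 h numbered 3535 to 4852 and those lower 3491 to 6167, each within 1.5 times the counts reported. The count of genes with a log2 change of at least 1 moved further under 3 settings. With at least 5 CPM in 4 sums, which tested 11128 genes, it was 1104 higher and 920 lower. With a term for column-name tokens it was 1195 lower (13587 genes tested), and on pairs with the same tokens 1124 lower (13702 tested). Upper-quartile scaling gave 38.5% rising genes among those called, against 46.3% with TMM, and a median change over all genes of -0.24, library totals gave -0.20, and the 8 sums alone gave 4652 higher and 4741 lower genes with a median of -0.07. DESeq2 called 4761 and 4997 genes, limma-voom 4401 and 5043, counts on rhesus IDs gave 4326 and 4961, and the fit without the 2 h library that stands apart 4420 and 5243, and that without all 3 such libraries 4437 and 5281. No replicate block (no term for the animal) gave 3535 and 3491. Libraries entered singly with the library number as a replicate block gave 4852 and 5952. Library numbers gave no sign of pairing, with a median r of -0.17 for the same number and 0.10 for others. The 4 IDs kept their direction and call in 21 of 21 alternatives (highest adjusted p 0.000737).

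Leaving out 1 animal in turn, each fit has 3 animals in place of 4, and fewer genes are called overall. The values that follow are for 6 h to 12 h, 24 h to 48 h, and IL-15 at 6, 12, 24 and 48 h. Of all genes tested, 1.94% to 2.44%, 0.725% to 1.64%, 2.47% to 3.64%, 11% to 15.2%, 13.6% to 17.2% and 13.9% to 18.5% were called higher and 1.3% to 2.07%, 0.257% to 1.65%, 1.62% to 2.85%, 8.17% to 14.1%, 13.7% to 18.4% and 13.5% to 17.8% lower. Of the genes higher at 2 h, 0.683% to 1.28%, 0.405% to 1.53%, 2.56% to 4.58%, 16.2% to 21.6%, 19.7% to 26.9% and 19.4% to 25.3% were called higher and 1.9% to 3.29%, 0.228% to 1.6%, 2.49% to 4.5%, 7.38% to 15.8%, 11.7% to 16% and 11.4% to 18% lower. Of the genes lower at 2 h, 4.2% to 4.77%, 0.618% to 1.71%, 3.16% to 4.22%, 10.2% to 14.3%, 12.1% to 15.5% and 14% to 18.7% were called higher and 0.67% to 1.43%, 0.185% to 1.88%, 1.71% to 3.37%, 12.3% to 19%, 18.3% to 25.7% and 18.7% to 23.3% lower.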
